A study of Mus musculus with 4 samples.

Results

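ATP-binding cassette (ABC) transporter genes were followed in mouse intestinal organoids with and without induced recombination of Apc, the gene of a negative regulator of Wnt signalling. Members were the genes whose symbol starts with Abc, a letter from a to g and a digit, taken from probe sets annotated to a single gene. The rule found 45 of 18193 measured genes and 92 of 45101 probe sets. Subfamily A held 14 members, B 8, C 10, D 3, E 1, F 3 and G 6. Each gene was read from its brightest probe set, by mean intensity over the arrays, on the log2(intensity + 16) scale.

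ABC proteins use ATP to move substrates across membranes, and most are exporters. In the intestinal epithelium, members on the luminal face return drugs, conjugates and plant sterols to the lumen, while others act at the basolateral face, in peroxisomes or in mitochondria. The E and F subfamilies have no membrane-spanning part and act in protein synthesis.

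All 4 arrays came from organoids with the floxed genotype Apc fl/fl. Organoids were left untreated or were given 4-hydroxytamoxifen (4OHT), the ligand that releases a tamoxifen-dependent Cre, for 24 h, and total RNA was taken at day 4 or day 6. Each of the 4 combinations was 1 array, so a difference between single arrays had no replicate check and is given without a test. The sources used here do not give the Cre driver, the number of source animals or their age. No organoids without the floxed allele were among the samples, so an effect of 4OHT itself and of losing Apc cannot be told apart. The question posed by the design is which genes differ with recombination and with time in culture. For this, limma fitted 4OHT and day together on the 4 arrays, with 1 residual degree of freedom and a prior of 18.8 degrees of freedom. "Rose" and "fell" are used only for an adjusted p under 0.05 in that fit, adjusted over 13198 genes whose highest intensity reached 20.9, the median over every probe set and array. Its p-values set each estimate against a spread made of departures from additivity among these arrays, which may be technical. That spread is mostly shared over the tested genes, so an SE given here is not the gene's own spread and holds no replicates.

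The epithelial markers, 8 of 8, were at or above the median on all 4 arrays. None of the fibroblast and muscle, endothelial or immune markers was called with 4OHT, and 2 of 7, 1 of 4 and 2 of 6 of them were under the median on all arrays. Their summed intensities were 114 to 204, 44.1 to 87.0 and 132 to 237 over the arrays, and none was at 0. Sums over different probes are not comparable between lists, so the share of such cells was not measured. The median intensity of all probe sets was 22.0 and 21.9 at day 4 and 19.3 and 19.5 at day 6.

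The 5′ flanks of Abcg2 and Abcc4, which passed with 4OHT, of Abcb1a, and of the neighbours Abcg5 and Abcg8 are shown with a search for promoter motifs. They were chosen after expression values were seen, and that of Abcb1a after its matches were seen too. Sequences are from RefSeq (mouse build GRCm38.p6), in the direction of the gene, and hold the 250 bases before an annotated start. Capitals mark matches on either strand to 4 motifs. The TCF-type site was spelled CTTTGAA, also counted with T at either or both of the final bases. The GC box was spelled GGGCGG, the TATA box was spelled TATAAA and the GATA-type site was spelled AGATAA, and no overlap between motifs was removed.
Abcg2, chr6:58584283-58584532, plus strand: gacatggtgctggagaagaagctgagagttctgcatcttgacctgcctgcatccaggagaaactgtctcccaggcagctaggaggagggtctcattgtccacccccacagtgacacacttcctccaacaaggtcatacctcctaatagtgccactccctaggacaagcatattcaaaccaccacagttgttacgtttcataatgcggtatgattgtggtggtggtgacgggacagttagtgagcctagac
Abcg2, chr6:58596422-58596671, plus strand: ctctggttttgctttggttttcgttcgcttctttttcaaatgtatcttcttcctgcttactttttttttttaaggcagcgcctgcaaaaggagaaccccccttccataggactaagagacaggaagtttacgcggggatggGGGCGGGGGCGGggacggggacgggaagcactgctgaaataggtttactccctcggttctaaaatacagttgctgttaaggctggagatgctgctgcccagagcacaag
Abcg2, chr6:58640296-58640545, plus strand: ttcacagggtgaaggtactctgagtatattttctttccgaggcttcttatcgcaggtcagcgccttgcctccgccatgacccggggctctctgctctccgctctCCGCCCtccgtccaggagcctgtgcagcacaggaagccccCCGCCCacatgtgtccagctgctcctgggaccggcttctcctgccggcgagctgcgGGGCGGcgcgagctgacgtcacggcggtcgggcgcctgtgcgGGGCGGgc
Abcb1a, chr5:8566841-8567090, plus strand: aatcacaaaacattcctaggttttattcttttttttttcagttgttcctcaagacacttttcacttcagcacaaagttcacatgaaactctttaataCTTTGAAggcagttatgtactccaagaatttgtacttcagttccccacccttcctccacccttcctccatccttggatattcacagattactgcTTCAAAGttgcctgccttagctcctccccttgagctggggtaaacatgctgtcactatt
Abcc4, chr14:118676932-118677181, minus strand: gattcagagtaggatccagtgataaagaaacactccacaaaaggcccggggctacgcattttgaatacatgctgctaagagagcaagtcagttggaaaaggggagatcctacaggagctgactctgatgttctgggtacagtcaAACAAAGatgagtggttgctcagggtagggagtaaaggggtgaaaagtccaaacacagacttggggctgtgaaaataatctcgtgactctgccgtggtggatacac
Abcc4, chr14:118706220-118706469, minus strand: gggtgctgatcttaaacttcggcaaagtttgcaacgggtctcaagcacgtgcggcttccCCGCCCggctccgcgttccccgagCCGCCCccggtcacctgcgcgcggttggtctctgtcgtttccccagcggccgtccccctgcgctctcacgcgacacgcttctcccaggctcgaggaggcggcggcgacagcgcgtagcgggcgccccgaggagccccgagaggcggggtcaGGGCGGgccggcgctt
Abcg5 and Abcg8, chr17:84683012-84683120, plus strand, all bases between the facing starts of these neighbours: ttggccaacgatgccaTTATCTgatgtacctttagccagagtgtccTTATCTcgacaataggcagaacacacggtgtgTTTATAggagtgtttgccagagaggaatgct
A TCF-type match was present in 14.8% of all 32851 windows of this length, a GC box in 32.7%, a TATA box in 12.4% and a GATA-type match in 9.99%. Among the 42 windows of the 35 members with a table entry, these motifs were in 4, 20, 5 and 5. The Abcg5 window and 1 Abcg8 window both hold the interval shown, so its TATA box and GATA-type matches were counted in both. The 2 Abcf2 windows overlap as well. The Abcb1a window held 2 TCF-type matches and an Abcc4 window held 1, while the Abcg2 windows and that of Abcc2 held none. Abcc1 was not among the 35. In windows of 109 bases, 2 or more GATA-type matches occurred in 0.186%, and the interval between Abcg5 and Abcg8 held 2. These are letter matches and not measured binding.

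By level, 23 members reached the overall median on all 4 arrays, 8 on some arrays and 14 on none. The 14 members under the median throughout were Abca4, Abca6, Abca8a, Abca9, Abca12, Abca13, Abca14, Abca16, Abcb1b, Abcb11, Abcc8, Abcc9, Abcd2 and Abcg3, with intensities of 4.32 to 19.4. Subfamily A supplied 8 of these, and 2 of its 14 members, Abca3 and Abca7, were at or above the median on every array. The corresponding counts on every array were 5 of 8 in subfamily B, 6 of 10 in C, 2 of 3 in D, 1 of 1 in E, 3 of 3 in F and 4 of 6 in G. The members on some arrays were Abca1, Abca2, Abca5, Abca8b, Abcb4, Abcc10, Abcc12 and Abcg1. The median is no detection limit, and brightness also depends on the probes, so no level was set against that of another gene. The 31 members that reached it on at least 1 array entered the fit.

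**Figure D1:**
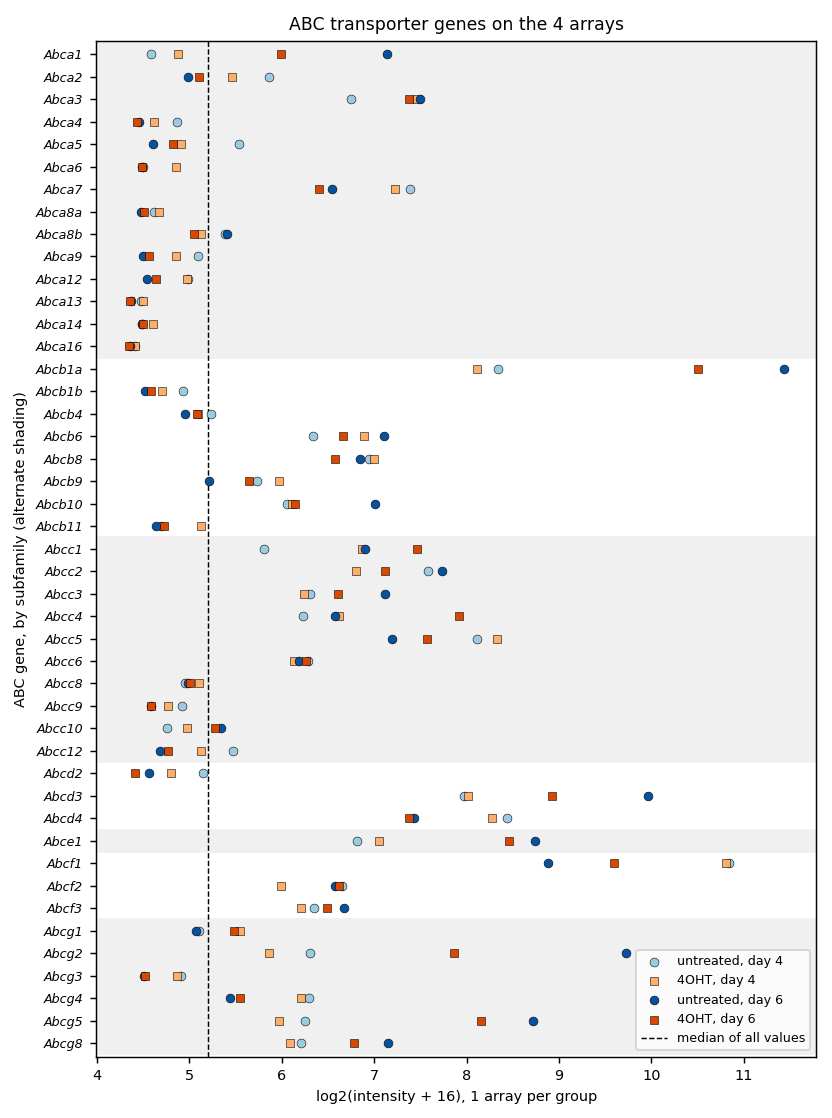
Level of each of the 45 ABC members on the log2(intensity + 16) scale, by subfamily, with 1 point for each of the 4 arrays; the dashed line is the median of all values. Most subfamily A members lie under the line, and the day 4 and day 6 points are far apart for Abcb1a, Abcg2, Abcg5 and Abcf1.

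With 4OHT over both days, 2 members rose (Abcc1 and Abcc4), 1 fell (Abcg2) and 28 of 31 did not pass the test. The 3 calls were 9.68% of the tested members, and 3.47% of all tested genes were called (1.06% higher and 2.41% lower). At an unadjusted p under 0.05 there were 5 members, and 1864 genes in all. None of the A, B, D, E and F subfamilies had a call, C had 2 and G had 1. The 4OHT difference had the same sign on both days in 15 of 31 members, 48.4%, against 57.9% of all tested genes. The calls depended on the settings. All 3 were lost with a pseudocount of 1 or 64, without the level filter or with the mean of all probe sets (adjusted p from 0.0514 to 0.392 for Abcg2). Over all genes the counts in these settings were 50, 0, 0 and 321 against 458.

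Markers of several epithelial cell types were called with 4OHT beside these members, where 1.06% of all tested genes rose and 2.41% fell. Of 10 measured enterocyte markers, 8 fell, and their summed intensity was 3623 untreated and 1357 with 4OHT at day 4 and 11670 and 5727 at day 6. All 5 Paneth markers rose, with sums of 28964 and 46532 at day 4 and 12502 and 43260 at day 6. Of 5 goblet markers 3 rose and 2 fell, with sums of 6073 and 9961, then 5523 and 7934. Of 5 crypt base columnar cell markers 2 rose and 3 did not pass, with sums of 1420 and 1690, then 5927 and 9568. None of these markers was at 0, and 7 of the 10 enterocyte markers were at or above the median on all arrays. Fewer cells of a type and less RNA per cell cannot be told apart in these bulk arrays. The signal of Actb probes at the 3′ end over the 5′ end was also higher with 4OHT, with log2 differences of 0.94 (day 4) and 0.62 (day 6). Hybridization control spots differed with 4OHT by log2 -0.32 at day 4 and 0.75 at day 6. For poly-A control spots these differences were -0.46 and 1.39. Both sets of controls were lowest in the untreated day 6 array. The part of the markers, of this RNA measure or of these controls in the differences of Abcg2, Abcc1 or Abcc4 was not tested.

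Abcg2 (breast cancer resistance protein) exports drugs and conjugates across the luminal membrane. At day 4 its intensity was 63.3 without and 42.3 with 4OHT, and at day 6 it was 828 without and 218 with 4OHT. The 4OHT array was the lower one on both days, and the untreated day 6 array was far above the other 3. The log2 difference was -0.45 at day 4 and -1.85 at day 6, and the additive estimate was -1.15 ± 0.26 (SE, adjusted p = 0.0156, limma). The estimate was -2.85 without the untreated day 4 array, where it still passed, and -0.15, 0.56 and -2.15 without 4OHT day 4, untreated day 6 and 4OHT day 6, where it did not. With 3 arrays the fit has no residual degree of freedom beside a day term, so day was dropped. These values also hold the day difference of the unpaired array. Most 4OHT calls over all genes were lost in these fits too.

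Abcb1a (a P-glycoprotein) also exports drugs at the luminal membrane. Its intensity was 307 untreated and 261 with 4OHT at day 4, and 2742 and 1436.5 at day 6. The array with 4OHT was lower on both days (log2 -0.22 and -0.93), with an additive estimate of -0.57 ± 0.23 that did not pass (adjusted p = 0.222). The other probe set of Abcb1a past the level filter gave -0.58 and -0.87. Abcb1b, its close relative, was under the median on all arrays (7.02 to 14.6).

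Abcc2 (MRP2) exports glucuronide and glutathione conjugates to the lumen. It read 176 and 95.7 at day 4 and 198 and 123 at day 6, untreated first. Both 4OHT arrays lay under both untreated arrays. The estimate was -0.70 ± 0.21 and did not pass (adjusted p = 0.0807).

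The members that rose with 4OHT are organic anion exporters of subfamily C, which also holds potassium channel subunits (Abcc8 and Abcc9). Abcc1 (MRP1), an exporter of glutathione conjugates and leukotrienes, read 40.0 untreated and 100.5 with 4OHT at day 4, and 104 and 161 at day 6. It was higher with 4OHT on both days (log2 1.06 and 0.56; estimate 0.81 ± 0.22, adjusted p = 0.0434), but its level in the 4OHT array of day 4 was close to that in the untreated array of day 6. The other Abcc1 probe set past the filter, of a design that can match several transcripts, gave -0.11 and -0.08. The probe sets read for Abcc2, Abce1 and Abcg4 were of that design too. Abcc4 (MRP4), which exports cyclic nucleotides and prostaglandins, read 59.1 and 82.0 at day 4 and 79.4 and 227 at day 6. The highest array was 4OHT at day 6 and the lowest untreated at day 4 (log2 0.38 and 1.35; estimate 0.86 ± 0.24, adjusted p = 0.0489). Both calls were lost when any 1 array was left out, as were most 4OHT calls over all genes. Without untreated day 4, 4OHT day 4, untreated day 6 and 4OHT day 6 in turn, the estimate was 0.26, 1.11, 1.36 and 0.51 for Abcc1 and 0.69, 1.52, 1.04 and 0.21 for Abcc4. Abcc3 (MRP3), a basolateral exporter of conjugates, read 63.1, 59.8, 122 and 81.7, in the order untreated and 4OHT at day 4, then untreated and 4OHT at day 6, and did not pass with 4OHT (adjusted p = 0.641). Abcc5, an exporter of organic anions, read 261, 306, 130 and 174 in that order and was above untreated on both days without passing (adjusted p = 0.6). Of the Abcc1 to Abcc6 group, 2 rose and 4 did not pass.

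**Figure D2:**
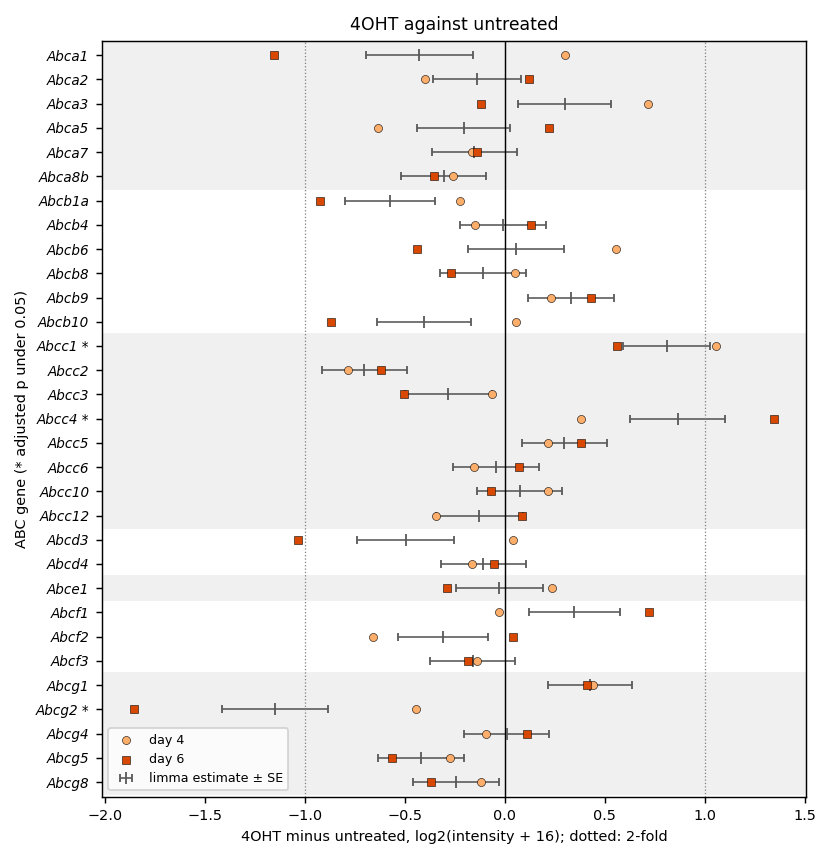
Difference between 4OHT and untreated on the log2(intensity + 16) scale for the 31 tested members, with 1 point for day 4 and 1 for day 6 and the additive limma estimate ± SE; stars mark an adjusted p under 0.05 and dotted lines a 2-fold difference. Abcc1 and Abcc4 lie right of 0 on both days, and Abcg2 lies left of 0 on both.

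Between single arrays at day 4, Abcc1 was the only member at least 2-fold apart, and it was higher with 4OHT. The background was 2.24% of tested genes (1.02% higher and 1.23% lower). At day 6, Abcc4 was at least 2-fold higher, and Abca1, Abcd3 and Abcg2 were at least 2-fold lower, which was 4 of 31 against 3.92% of tested genes (0.917% higher and 3% lower). The median difference of all 45 members was -0.05 at day 4 and 0.00 at day 6. By subfamily these medians were 0.00 and 0.00 for A, 0.05 and -0.10 for B, 0.05 and 0.05 for C, -0.16 and -0.16 for D, -0.14 and 0.04 for F and -0.11 and -0.18 for G. The median over all 18193 measured genes was 0.03 and 0.00. These medians hold the dim members, whose differences the pseudocount presses towards 0. Over the tested members alone they were -0.21 and -0.13 for A, 0.05 and -0.35 for B, 0.08 and 0.08 for C, -0.06 and -0.54 for D and -0.12 and -0.37 for G, and over all tested genes 0.06 and -0.01. In subfamily E, Abce1 alone, the differences were 0.23 and -0.29.

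Sterol exporters include Abca1, which loads cholesterol onto apolipoprotein A-I, and Abcg5 with Abcg8, which together return plant sterols and cholesterol to the lumen. Abca1 read 7.97 untreated and 13.5 with 4OHT at day 4, both under the median, and 125 and 47.5 at day 6. The sign of its 4OHT difference turned between days, and the estimate did not pass (-0.43 ± 0.27, adjusted p = 0.526). Abcg5 read 60.0 and 46.8 at day 4 and 405 and 269 at day 6. Abcg8 read 58.2 and 52.3, then 126 and 93.8. Both were lower with 4OHT on both days, by amounts that did not pass (adjusted p = 0.401 and 0.699). Abcg1, a cholesterol exporter, read 18.3 and 30.7 at day 4 and 17.8 and 28.9 at day 6, crossing the median with 4OHT on both days (0.43 ± 0.21, adjusted p = 0.376). Its other probe set past the filter read 28.7 and 23.2, then 9.89 and 12.1, without this crossing.

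Other genes of the same pathways were read beside the transporters. Over all tested genes, 1.06% rose and 2.41% fell with 4OHT. Of 13 measured sterol and bile acid genes, none rose, 4 fell and 9 did not pass. The genes that fell were Fabp6, an ileal bile acid binding protein (-2.23 ± 0.24), Mttp, needed for lipoprotein assembly (-1.80 ± 0.26), Slc51a, a subunit of the basolateral bile acid exporter (-1.66 ± 0.25), and Apoa1 (-1.03 ± 0.22). Of 16 tested foreign compound enzymes and uptake carriers, 7 fell and 9 did not pass. Those that fell were the sulfotransferases Sult1d1 (-2.36) and Sult1b1 (-1.35), the oxidases Cyp3a11 (-1.75), Cyp3a25 (-1.23) and Cyp3a13 (-1.07), the glutathione transferase Gsta4 (-1.10) and the glucuronosyltransferase Ugt2b34 (-1.04). Of 12 measured nuclear receptors and factors known to regulate ABC genes, the bile acid receptor Nr1h4 fell (-1.07 ± 0.22) and 11 did not pass. Cftr, Tap1 and Tap2, which are ABC proteins under other symbols, did not pass either. The differences of Cftr, the chloride channel, were 0.07 and -0.08, while it rose with day by 2.58 ± 0.21.

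Between day 4 and day 6, 10 members rose, 7 fell and 14 did not pass. The 17 calls were 54.8% of tested members, against 54.9% of all tested genes (35.8% higher and 19.1% lower), so the share was that of the array as a whole. In fits of 3 arrays without the 4OHT term, no member was called without either day 4 array, and without untreated day 6 or 4OHT day 6 the counts were 10 and 12. Over all 13198 genes those fits called 0, 0, 2896 and 4610, so calls were lost over the whole array. In the untreated arrays 7 members were at least 2-fold higher and 2 lower at day 6, against 24.6% and 5.42% of tested genes (30% in all). With 4OHT the counts were 6 and 1, against 16.8% and 2.8% (19.6% in all). Hybridization control spots were lower at day 6 by 2.15 untreated and by 1.07 with 4OHT on the log2 scale. For poly-A control spots the day differences were -2.87 untreated and -1.02 with 4OHT. The Actb signal at the 3′ end over the 5′ end was lower at day 6 too, by log2 differences of -1.24 untreated and -1.56 with 4OHT, and that of Gapdh by -0.56 and -0.87. The part of these in the day differences was not tested. The day 6 difference with 4OHT and the untreated day difference share the untreated day 6 array.

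**Figure D3:**
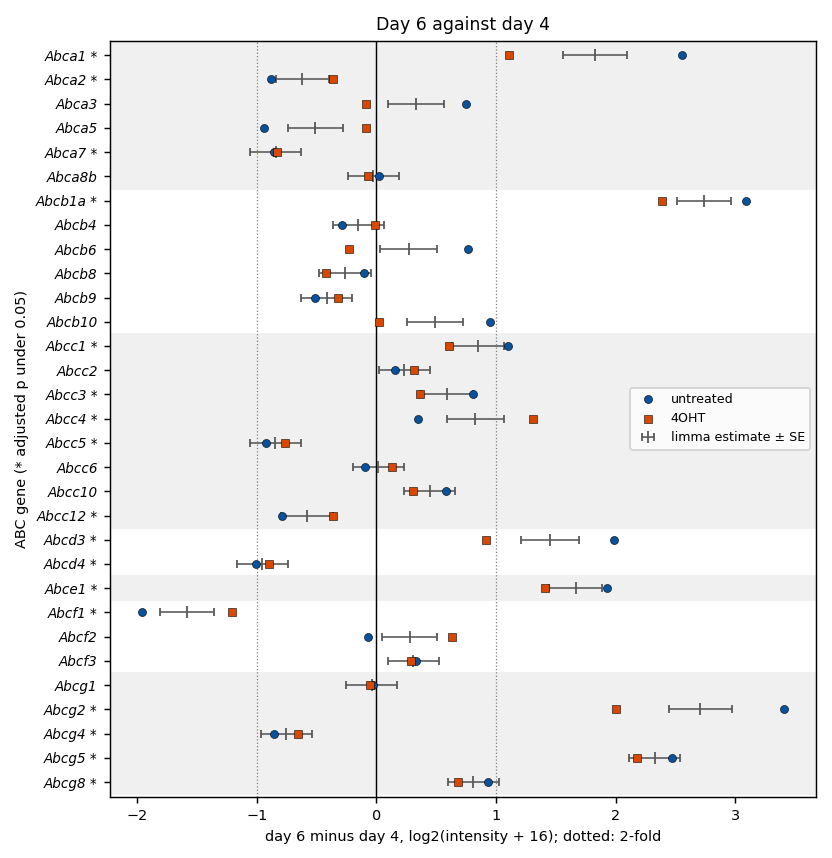
Difference between day 6 and day 4 on the log2(intensity + 16) scale for the 31 tested members, with 1 point for untreated and 1 for 4OHT and the additive limma estimate ± SE; stars mark an adjusted p under 0.05 and dotted lines a 2-fold difference. Abcb1a, Abcg2 and Abcg5 have the highest estimates of those plotted and Abcf1 the lowest.

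The highest day estimates were those of Abcb1a, Abcg2 and Abcg5, while Abcc2, also a luminal exporter, did not pass (0.23, adjusted p = 0.35). Abcb1a rose by 2.74 ± 0.23 (adjusted p = 2.34e-08), 3.09 in untreated and 2.39 in 4OHT arrays. Abcg2 rose by 2.71 ± 0.26 (adjusted p = 1.69e-07), 3.41 untreated and 2.004 with 4OHT. Abcg5 rose by 2.33 ± 0.21 (adjusted p = 8.83e-08) and its partner Abcg8 by 0.81 ± 0.21 (adjusted p = 0.00367). In all 4 of these, both day 6 arrays were above both day 4 arrays. Abca1 rose by 1.83 ± 0.27 from arrays under the median at day 4. Its other 2 probe sets, under the median on all arrays, had untreated day differences of -0.39 and -0.19, and with the mean of all probe sets the estimate was 0.43 and did not pass (adjusted p = 0.0639). With day, 8 of 10 enterocyte, 4 of 5 crypt base columnar cell and 6 of 8 epithelial markers rose. Those that fell were 4 of 5 Paneth, 3 of 5 tested fibroblast and muscle and 3 of 4 tested immune markers. Over all tested genes, 35.8% rose and 19.1% fell with day. The part of these markers in the members' day differences was not tested.

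Members of other compartments moved both ways with day. Abcd3, which imports fatty acids and bile acid precursors into peroxisomes, read 235 and 242 at day 4 and 981 and 471 at day 6, untreated first. Its day 6 arrays were above both day 4 arrays (1.45 ± 0.24, adjusted p = 6.33e-05), and the untreated one was the highest. Abcd2, another peroxisomal member, was under the median throughout, at 19.4 and 11.9 and then 7.75 and 5.29. Abcd4, a lysosomal exporter of cobalamin, read 331 and 294, then 156 and 150.3, and fell by 0.95 ± 0.21. Of 11 measured peroxisome genes, 5 rose with day and 1 fell, against 35.8% and 19.1% of all tested genes. With 4OHT the thiolase Acaa1b (-1.87) and Ehhadh (-0.95) fell while 9 did not pass, against 2.41% lower over all tested genes. The mitochondrial members did not pass in either term. Abcb10, an inner membrane protein linked to haem synthesis, read 50.6, 53.4, 113 and 54.6 in the order used above, with only the untreated day 6 array apart. Abcb6 read 64.9, 103, 122 and 85.7, and Abcb8 107, 112, 99.0 and 79.4. In these brightest probe sets, all 3 were above untreated at day 4 and under it at day 6. The other probe set past the filter did not share this for Abcb10 (-0.06 and -0.49) or Abcb8 (0.37 and 0.07). For Abcb10 it read 64.6, 61.4, 49.5 and 30.5, so the untreated day 6 array was not apart there.

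The soluble members of protein synthesis differed from each other. Abce1, which splits ribosomes after termination, read 96.7 and 117 at day 4 and 413 and 336 at day 6, untreated first, and rose by 1.67 ± 0.22 (adjusted p = 4.56e-06). Abcf1, which assists initiation, read 1809 and 1775 at day 4 and 454 and 759 at day 6, and fell by 1.58 ± 0.23 (adjusted p = 1.23e-05). In both genes the arrays of a day lay together, in opposite order. The 6 Abcf1 probe sets past the filter did not share this, with untreated day differences from -1.96 to 0.37. Abcf2 read 84.5, 47.6, 79.4 and 82.3 and Abcf3 65.3, 57.9, 86.5 and 74.1, and neither passed. Of 6 measured partners in translation, 3 rose with day and 1 fell, near the shares of all tested genes. None passed with 4OHT, where the eIF2 subunits Eif2s3x and Eif2s2 had differences of -0.24 and -0.41, and of -0.23 and 0.96.

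Among the remaining members, Abcc1, Abcc3 and Abcc4 rose with day by 0.85 ± 0.22, 0.59 ± 0.22 and 0.83 ± 0.24. For Abcc1 the other probe set gave day differences of -0.79 and -0.76. Abcc5 fell by 0.85 ± 0.21 and Abcc12 by 0.58 ± 0.22. Abcc12 read 28.5 and 19.1 at day 4 and 9.68 and 11.3 at day 6. Only its untreated day 4 array reached the median, so it entered the fit through an array where it was high. With a mean intensity of 17.1, it was not tested with the filter on the mean. Abca7, a lipid transporter, read 152 and 134 at day 4 and 77.1 and 68.5 at day 6 and fell by 0.84 ± 0.21. Abca2, read at 42.2 and 28.1 and then 15.6 and 18.4, fell by 0.62 ± 0.22 to levels under the median. Abcg4, a sterol exporter known mainly from brain, read 62.8 and 57.8, then 27.5 and 31.0, and fell by 0.76 ± 0.21. Abca3, a surfactant lipid transporter, read 91.5 untreated at day 4 against 150.3 to 165 in the other arrays and passed in neither term. Abca5, Abca8b, Abcb4, Abcb9, Abcc6 and Abcc10 passed in neither term as well. Quantile normalization ended 5 day calls, those of Abcc1 (0.45, adjusted p = 0.12), Abcc3 (0.16, adjusted p = 0.547), Abcc4 (0.39, adjusted p = 0.209), Abcg8 (0.40, adjusted p = 0.131) and Abcc12 (-0.45, adjusted p = 0.108). The mean of all probe sets ended those of Abcc1 (0.04, adjusted p = 0.864), Abcc5 (-0.25, adjusted p = 0.209) and Abcc12 (adjusted p = 0.0514) beside Abca1. Median centring ended those of Abca2 (adjusted p = 0.0528) and Abcc12 (adjusted p = 0.0623).

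Several probe sets past the filter were present for 15 members, and most of these members had probe sets that disagreed. Within each day, the probe sets of a gene shared the sign of the 4OHT difference in 3 of them (Abca3, Abcb1a and Abcb9). Within each arm, they shared the sign of the day difference in 6. For Abca3 the shared sign turned between days, with 0.72 and 0.16 at day 4 and -0.12 and -0.40 at day 6. Abcc2, Abcc4, Abcg2, Abcg5 and Abcg8 each had 1 probe set, so no second reading exists for them here.

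**Figure D4:**
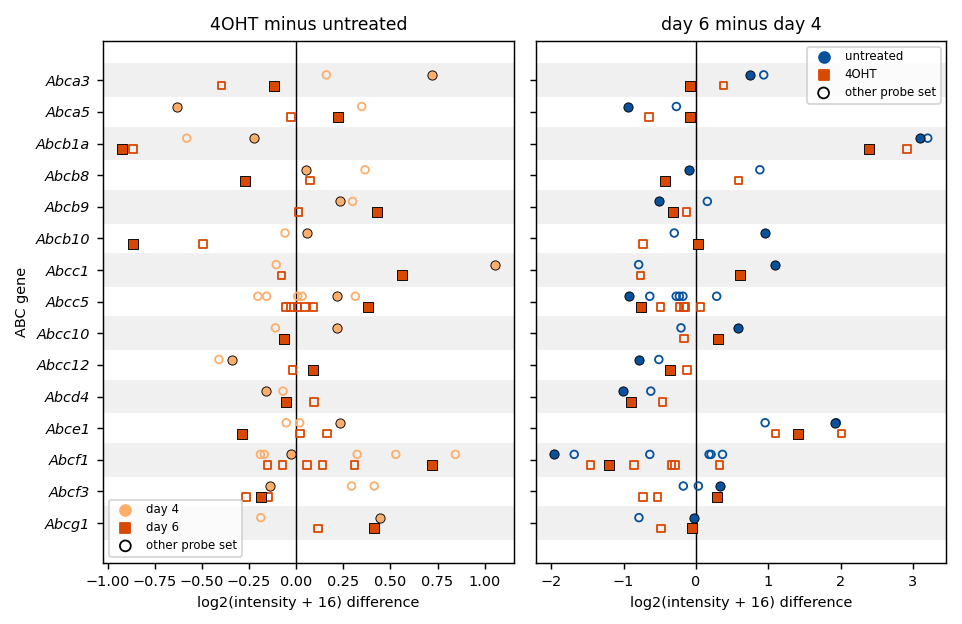
Differences on the log2(intensity + 16) scale for the 15 members with 2 or more probe sets past the level filter; the filled point is the brightest probe set and open points are the others. The probe sets of Abcb1a lie together, while those of Abcc1 and Abcf1 lie apart.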

How the data were processed

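Expression was measured on 4 single-colour Affymetrix arrays, with biotinylated cRNA from 100 ng of total RNA, per the labels' protocols. The authors deposited linear probe set intensities (lowest 2.73, highest 23910). The sources used here do not state how background, scaling and summaries were computed. Probe sets were named through the platform annotation: 34945 had 1 gene and 932 several. Differences are of log2(intensity + 16), which understates changes of dim genes. The fit used limma 3.58.1 in R 4.3.3 with 4OHT and day as terms and Benjamini-Hochberg adjustment. It was also run on simulated additive data with its own prior spread, which cannot check how it handles departures from additivity. The filter asked for the median of all values on at least 1 array. Named genes were all members, with values for those called, at least 2-fold apart, or of the role lists, and list genes called with 4OHT. Cell type markers were given as counts and sums instead. Cftr, Tap1, Tap2, Eif2s3x and Eif2s2 were named without a 4OHT call. The members and lists were chosen with earlier results of these data known. The number of arrays limits the precision. Pseudocounts, filters, scalings, probe set rules, folds and left-out arrays were tried as alternatives.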

Additional observations from a re-analysis of the deposited data

Results flagged for a closer look

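In 4 members the 4OHT difference had opposite signs on the 2 days, each at least as large as the prior SD of limma (0.217 on the log2 scale). Whether the days differ was not tested, since a model with that term has no residual degrees of freedom. Abca1 was 0.30 higher with 4OHT at day 4 and differed by -1.15 at day 6, so day 6 minus day 4 was -1.45, and its day 4 arrays were both under the median. Abca5 had -0.63 and 0.22, a change of 0.85, but only its untreated day 4 array reached the median. The other Abca5 probe set past the filter gave 0.35 and -0.03. Abcb6 had 0.55 and -0.44, a change of -0.99. Abce1 had 0.23 and -0.29, a change of -0.52, while its other probe sets past the filter gave -0.05 and 0.02, and 0.02 and 0.16.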

How the results depend on the processing

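All 3 4OHT calls (2 higher, 1 lower) were lost without a level filter, with the filter on the mean, with the mean of probe sets, with a pseudocount of 1 or 64, and with day left out (limma count 0 in each; 7, 5, 5, 5, 5 and 0 members at an unadjusted p under 0.05). Over all genes these settings called 0, 267, 321, 50, 0 and 0, against 458. Quantile scaling left 1 (Abcg2), as did the brightest probe set by mean log2, chosen after seeing the data. Over all genes these called 306 and 425. Without probe sets of designs that can match several transcripts, 2 were left and 426 over all genes. There the Abcc4 call was lost (adjusted p = 0.0574, limma). Median centring kept all 3, with 506 over all genes. Fits with 1 array left out have 1 array in a group. Most 4OHT calls over all genes were lost there too, so the loss is not particular to these members. Adjusted p ranged from 0.00692 to 1.0 for Abcg2, 0.0364 to 1.0 for Abcc1 and 0.0337 to 1.0 for Abcc4. Directions held in all 14 alternatives except Abcg2 without untreated day 6 (0.56). Filters and leaving out day cannot change an estimate, nor can probe set rules for Abcg2 and Abcc4, with 1 probe set each. In those settings these 2 stayed at -1.15 and 0.86, so a held direction there is no check. Over the arrays left out, the Abcg2 estimate ran from -2.85 to 0.56, in fits without a day term. Those fits are unbalanced over days by construction. The 17 day calls became 0 to 12 on leaving out 1 array, and with median centring the split was 12 higher and 5 lower against 10 and 7, and with quantile normalization 7 and 7 (14 calls, 12 shared with the 17). Over all genes the day calls were 7049 with centring and 6114 with quantile normalization, against 7243. At 2-fold, the day 4 count of 1 became 0 (mean of probe sets), 2 (pseudocount 1), 0 (pseudocount 64) and 5 (at 1.5-fold). Over all genes these settings gave 160, 850, 77 and 1787, against 296. The day 6 count of 4 became 2 (mean of probe sets), 2 (pseudocount 64), 2 (quantile scaling, 1 higher and 1 lower) and 8 (at 1.5-fold). Over all genes these settings gave 337, 278, 416 and 1796, against 517. The untreated day count of 9 became 4 (mean of probe sets), 17 (pseudocount 1) and 21 (at 1.5-fold), and the higher and lower split of 7 and 2 was 9 and 1 with centring and 6 and 5 with quantile scaling. The 4OHT day count of 7 became 15 at 1.5-fold, and its split of 6 and 1 was 4 and 4 with quantile scaling. Over all genes the main day counts were 3957 untreated and 2586 with 4OHT. Those of the other settings are not given here, so these moves are not read as particular to the members. The cause of these moves was not tested. These scalings moved the median untreated day difference of tested genes from 0.17 to 0.35 and -0.11. No paired analysis was possible because the labels give no replicate numbers and each group has 1 array. Day matches 4OHT to untreated arrays and is already a term of the fit.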
